A study of Mus musculus with 12 samples.

Results

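The nuclear receptors of the PPAR and ERR families, the RXR partners and the PGC-1 coactivators were examined in mouse ventricular wall. The members were the rows whose gene name was Ppara, Ppard, Pparg, Rxra, Rxrg, Esrra, Esrrb, Esrrg, Ppargc1a or Ppargc1b. Of these 10 names, 9 had a row among the 43686 rows of the expression table, and all 9 had enough counts to be tested. No row carried the name Esrra (ERRα), which was not analysed here. Rxrb, the remaining RXR gene, was not a member and was followed beside Rxra and Rxrg as their family partner.

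PPARs are nuclear receptors that are activated by fatty acids and bind DNA as heterodimers with an RXR, and in the heart they drive genes of fatty acid uptake, storage and oxidation. ERRs are orphan receptors that bind DNA without a known natural ligand and drive genes of the tricarboxylic acid cycle and of oxidative phosphorylation. PGC-1α (Ppargc1a) and PGC-1β (Ppargc1b) bind no DNA themselves, and act as coactivators that dock on PPARs, ERRs and other factors to raise the transcription of mitochondrial genes.

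mRNA was sequenced from 6 WT and 6 KO heart samples of mice on a C57BL/6 background (C57BL/6J in the methods). WT mice were Sdhaf4fl/fl littermates without Cre, and KO mice carried the same alleles with Ckmm-Cre, so both groups shared the floxed Sdhaf4 and Cre was present in 1 group only; its effect and that of the deletion cannot be told apart. Ckmm-Cre is driven by the muscle creatine kinase promoter, which is active in cardiac and skeletal muscle, so fibroblasts, endothelial cells and other cells of the ventricular wall were not targeted. Sdhaf4 encodes an assembly factor of succinate dehydrogenase, complex II of the respiratory chain. The labels describe the genotypes as wild type and Sdhaf4-/- and give the age as 2 months, whereas the study's text gives 6 weeks and its reporting summary 3 or 8 weeks, so the age of these mice is uncertain. The labels name no treatment for either group. The comparison asked how the RNA of these regulators differed between KO and WT hearts.

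Library totals ranged from 23747014 to 27159228 counts in WT and from 26542930 to 31393393 in KO. Levels are given as CPM, counts scaled to a common library total, after TMM scaling, which equalizes the libraries on the bulk of their genes. The targeted gene Sdhaf4 went from 14.3, 26.7 and 30.3 CPM (lowest, median and highest) in WT to 2.25, 2.35 and 2.73 CPM in KO, a log2 fold change of -3.39 (SE 0.16, adjusted p = 1.95e-10 by edgeR's quasi-likelihood test, n = 6 in each group). Cardiomyocyte genes were abundant in every library: the summed level of 10 markers was 58409 to 65619 CPM in WT and 46705 to 66376 CPM in KO. Markers of some other cells differed between the genotypes. The sum of 9 fibroblast markers was 1550 to 1811 CPM in WT and 2650 to 4974 CPM in KO, and that of 8 endothelial markers 1574 to 1742 CPM and 1725 to 2034 CPM. The sum of 8 macrophage markers overlapped widely, at 211 to 298 CPM in WT and 215 to 346 CPM in KO. Genes within a list did not all move together at an adjusted p under 0.05 by edgeR's quasi-likelihood test. Of the fibroblast markers 8 were higher and 1 (Dpt) lower, and of the endothelial markers 5 were higher and 1 (Tek) lower. Of the cardiomyocyte markers 1 (Mybpc3) was higher and 5 were lower. Among all rows tested 25.6% were higher and 25.5% lower. The fibroblast sum includes Postn, with means of 44.3 CPM in WT and 515 CPM in KO. KO replicate 3 had the highest cardiomyocyte sum of the KO libraries. Because the tissue is a mixture, fewer cells of a type and less RNA per cell cannot be told apart in any value below.

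Of the 9 members tested, 1 was higher in KO (Ppara) and 2 were lower (Rxra and Rxrg) at an adjusted p under 0.05. That is 33.3% of the members, against 51.1% of the 17155 rows tested, of which 25.6% were higher and 25.5% were lower. For 1 member (Rxra) every KO library was lower than every WT library, whereas groups apart in either direction were found in 30.1% of all rows. At the stricter threshold of the methods, an adjusted p under 0.005 with a log2 fold change over 1 in either direction, none of the 9 members passed, against 10.2% of all rows. Every member therefore changed by less than 2-fold, with fitted folds (KO over WT) between 0.673 for Rxra and 1.33 for Ppara.

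**Figure D1:**
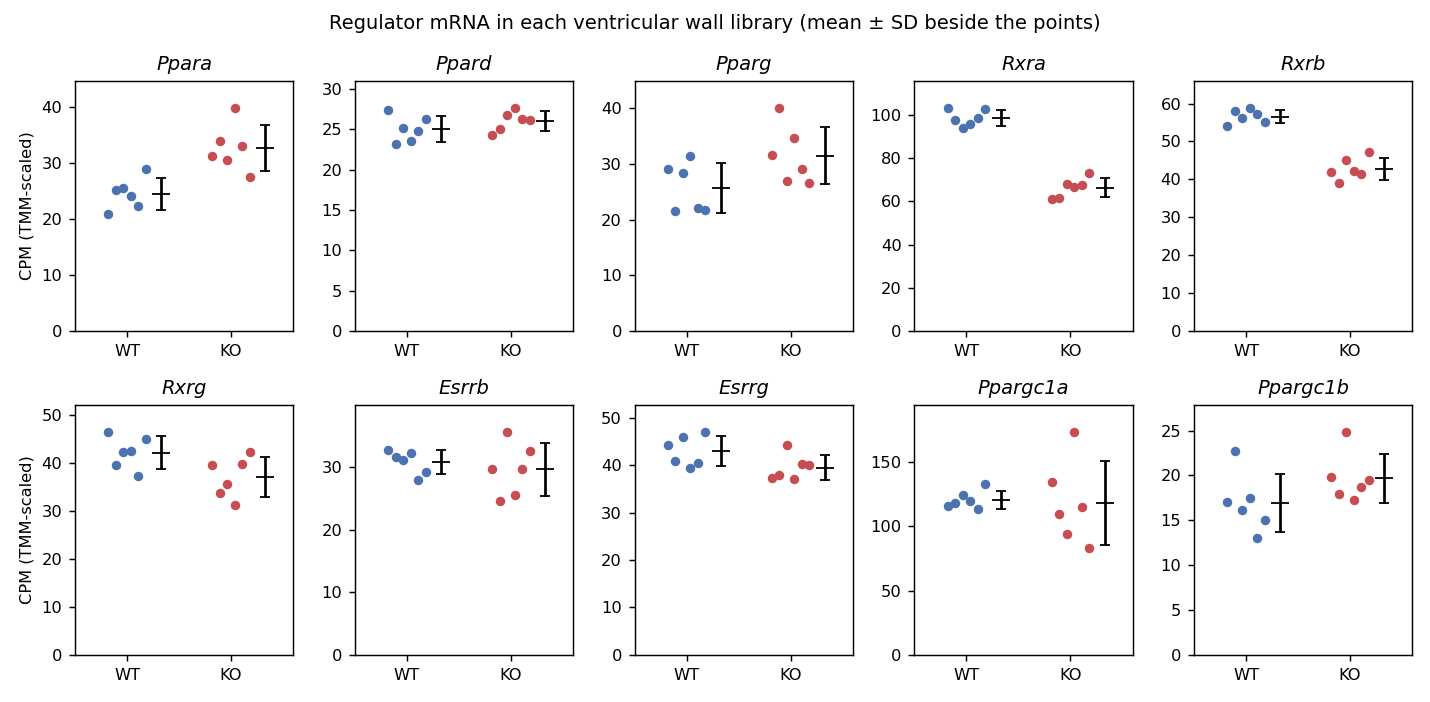
Each panel plots the TMM-scaled CPM (y axis, from 0) of 1 gene in the 6 WT libraries (blue) and 6 KO libraries (red), with the group mean ± SD in black beside the points. All KO points of Rxra and Rxrb lie below all WT points, Ppara is higher in KO with 1 pair of libraries overlapping, and Ppargc1a spreads from 82.7 to 173 CPM in KO against 113 to 132 CPM in WT.

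Rxra and Rxrb, which encode common partners of PPARs, both fell, and Ppara, which encodes the PPAR that governs cardiac fatty acid oxidation, rose, so the promoter windows of these genes are shown. Each runs from 250 bases before to 50 bases after an annotated transcription start in RefSeq (GRCm38.p6), on the strand of the gene, which is the plus strand for all 3 genes. The sequences are in lower case, and capitals mark AGGTCA or its reverse complement TGACCT, the core hexamer that nuclear receptors of these families recognize. The windows are Ppara at chr15:85735526-85735825, Rxra start 1 at chr2:27676951-27677250, Rxra start 2 at chr2:27709042-27709341, Rxrb start 1 at chr17:34031562-34031861 and Rxrb start 2 at chr17:34032100-34032399.
Ppara: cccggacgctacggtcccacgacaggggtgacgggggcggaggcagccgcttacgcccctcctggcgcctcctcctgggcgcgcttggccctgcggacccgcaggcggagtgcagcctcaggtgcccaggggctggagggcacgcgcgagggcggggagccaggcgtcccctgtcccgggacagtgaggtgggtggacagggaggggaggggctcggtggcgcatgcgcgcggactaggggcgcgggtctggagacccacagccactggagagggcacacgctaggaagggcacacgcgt
Rxra start 1: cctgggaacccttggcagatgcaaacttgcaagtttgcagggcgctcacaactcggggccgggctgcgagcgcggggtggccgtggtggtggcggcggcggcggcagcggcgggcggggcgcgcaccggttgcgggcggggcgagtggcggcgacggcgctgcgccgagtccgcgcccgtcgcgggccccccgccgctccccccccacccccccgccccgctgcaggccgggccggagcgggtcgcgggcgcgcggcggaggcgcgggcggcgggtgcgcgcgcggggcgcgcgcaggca
Rxra start 2: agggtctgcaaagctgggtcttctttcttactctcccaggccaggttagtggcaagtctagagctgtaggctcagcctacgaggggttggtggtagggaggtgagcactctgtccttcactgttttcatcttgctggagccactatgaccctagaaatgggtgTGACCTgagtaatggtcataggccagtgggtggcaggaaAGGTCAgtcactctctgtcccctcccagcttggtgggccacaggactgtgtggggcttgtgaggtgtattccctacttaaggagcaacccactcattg
Rxrb start 1: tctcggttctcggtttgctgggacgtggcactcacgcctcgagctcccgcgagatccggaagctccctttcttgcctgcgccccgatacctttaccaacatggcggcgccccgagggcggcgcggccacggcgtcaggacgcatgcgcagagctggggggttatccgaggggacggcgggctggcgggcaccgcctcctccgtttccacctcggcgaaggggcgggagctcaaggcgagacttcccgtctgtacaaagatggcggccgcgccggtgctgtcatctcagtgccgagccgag
Rxrb start 2: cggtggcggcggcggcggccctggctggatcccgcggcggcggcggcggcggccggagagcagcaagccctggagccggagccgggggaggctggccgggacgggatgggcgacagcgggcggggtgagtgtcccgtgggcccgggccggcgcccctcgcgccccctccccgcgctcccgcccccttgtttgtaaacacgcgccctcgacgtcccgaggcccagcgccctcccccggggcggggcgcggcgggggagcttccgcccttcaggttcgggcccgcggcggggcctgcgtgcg

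The Ppara window was 74.7% G or C with 30 CpG dinucleotides. Rxra start 1 was 83.0% G or C with 55 CpG, whereas start 2 was 54.3% with 1 CpG and held 2 core hexamers. The Rxrb windows were 68.7% and 82.0% G or C, with 37 and 47 CpG. Over all 32851 promoter windows the medians were 52.7% and 7 CpG, so all of these windows other than Rxra start 2 were of the CpG-rich kind. A core hexamer on either strand was found in 16.3% of all windows. Among the 18 windows of the 9 genes with an entry (the members in the table and Rxrb, other than Ppargc1b), 4 windows of 3 genes held a core hexamer, 1 of Rxrg, 1 of Rxra and 2 of Pparg. The DR1 element, AGGTCA repeated in the same direction after 1 base, which PPAR-RXR pairs bind, was in 0.0396% of all windows and in none of these 18, and the ERR element, AGGTCA preceded by TNA, was in 1.28% of all windows and in none of these 18. Both elements contain the core hexamer, and all 3 motifs were searched on both strands. The counts do not show which start was used, and a match or its absence in such a window says nothing of binding.

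Among the PPAR genes, Ppara (MGP_C57BL6NJ_G0022604, chromosome 15, 89883354 to 89956391, plus strand, on the C57BL/6NJ assembly that the identifiers of the table name) was higher in KO. Its lowest, median and highest levels were 20.8, 24.7 and 28.9 CPM in WT and 27.5, 32.0 and 39.8 CPM in KO. The groups overlapped only through WT replicate 6, the highest of its group, and KO replicate 6, the lowest. The log2 fold change was 0.41 (SE 0.09, 95% interval 0.23 to 0.60, adjusted p = 0.000884 by edgeR's quasi-likelihood test), a rise of 33.3%. No other row spanned the gene. Ppara kept its call in all 23 alternative fits, with log2 fold changes from 0.35 to 0.47.

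Ppard encodes PPARδ, a PPAR of broad distribution that is also active in heart muscle (chromosome 17, 28726745 to 28806207). It measured 23.2, 25.0 and 27.4 CPM in WT and 24.3, 26.3 and 27.7 CPM in KO, so the groups overlapped over most of their range. Its log2 fold change was 0.06 (95% interval -0.07 to 0.18, adjusted p = 0.444 by edgeR's quasi-likelihood test).

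Pparg encodes PPARγ, the master regulator of fat cell differentiation (chromosome 6, 120977640 to 121121081). It measured 21.5, 25.2 and 31.4 CPM in WT and 26.6, 30.3 and 40.0 CPM in KO. The WT libraries fell apart into 3 near 22 CPM (replicates 2, 5 and 6) and 3 between 28.4 and 31.4 CPM, and the upper WT libraries lay within the KO range. The difference of 0.29 on the log2 scale (95% interval 0.04 to 0.55) did not pass at adjusted p = 0.0544 by edgeR's quasi-likelihood test, and it passed in 9 of 23 alternative fits, among them DESeq2 (adjusted p = 0.0463) and the fit without WT replicate 4 (adjusted p = 0.024). The defining fat cell markers were close to absent: Adipoq had 0 to 11 counts in any library, Lep 0 or 1 and Retn 0 to 2. Fabp4, which endothelial cells also express, was the only one of 7 adipocyte markers with enough counts to be tested (log2 fold change -0.08).

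The RXR genes were lower in KO. Rxra (MGP_C57BL6NJ_G0025933, chromosome 2, 26564430 to 26652907, plus strand) encodes RXRα. It measured 93.8, 98.3 and 103 CPM in WT and 61.2, 67.0 and 73.1 CPM in KO, so that the highest KO library lay well below the lowest WT library. The log2 fold change was -0.57 (SE 0.05, 95% interval -0.68 to -0.47, adjusted p = 7.63e-08 by edgeR's quasi-likelihood test), a change of -32.7%. No other row spanned the gene, and the 23 alternative fits gave log2 fold changes from -0.61 to -0.55, all past the threshold. In KO replicate 3, whose cardiomyocyte marker sum was 106% of the WT mean, Rxra was at 69.0% of its own WT mean. The part of cardiomyocyte content in the change of Rxra was not tested.

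Rxrb encodes RXRβ, which is expressed in most tissues (MGP_C57BL6NJ_G0023961, chromosome 17, 35302730 to 35309311). Its levels were 54.1, 56.6 and 58.9 CPM in WT and 39.0, 42.0 and 47.2 CPM in KO, again without overlap. Its log2 fold change was -0.40 (SE 0.05, adjusted p = 5.2e-06 by edgeR's quasi-likelihood test), and it passed in all 23 alternative fits.

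Rxrg encodes RXRγ, the RXR that is mostly confined to striated muscle and parts of the nervous system (MGP_C57BL6NJ_G0017118, chromosome 1, 178958441 to 179004554). It measured 37.2, 42.3 and 46.5 CPM in WT and 31.1, 37.6 and 42.1 CPM in KO. The groups overlapped broadly, with 3 KO libraries (replicates 1, 5 and 6) inside the WT range. Its log2 fold change was -0.19 (SE 0.08, 95% interval -0.35 to -0.03, adjusted p = 0.0485 by edgeR's quasi-likelihood test). This call was at the threshold: 14 of 23 alternative fits lost it, DESeq2 among them (adjusted p = 0.0568), and leaving out any 1 of WT replicates 1, 3, 4 and 6 or KO replicates 2, 3 and 4 gave an adjusted p from 0.0608 to 0.114.

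Ratios within a library do not depend on library scaling. Per 100 counts on Rxra, the WT libraries held a median of 25.5 counts on Ppara (20.1 to 28.1) and the KO libraries 49.8 (37.7 to 59.8), without overlap. For Pparg the ratio had a median of 25.2 in WT (21.1 to 32.7) and of 47.3 in KO (36.4 to 64.7), also without overlap, although Pparg alone overlapped between the groups. For Rxrg it was 37.6 to 45.0 in WT and 46.9 to 64.7 in KO. The ratio of Rxrb to Rxra was 52.4 to 61.4 in WT and 61.3 to 68.5 in KO, which overlapped at the edge. Rxra itself fell in KO, so its ratio rises for any gene that fell less, as it did for Rxrg, which was lower in KO. The lack of overlap therefore restates the fall of Rxra in part and is not a separate result for Pparg or Rxrg. These ratios are of counts, not of transcripts, since the genes differ in length, and they were not tested.

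**Figure D2:**
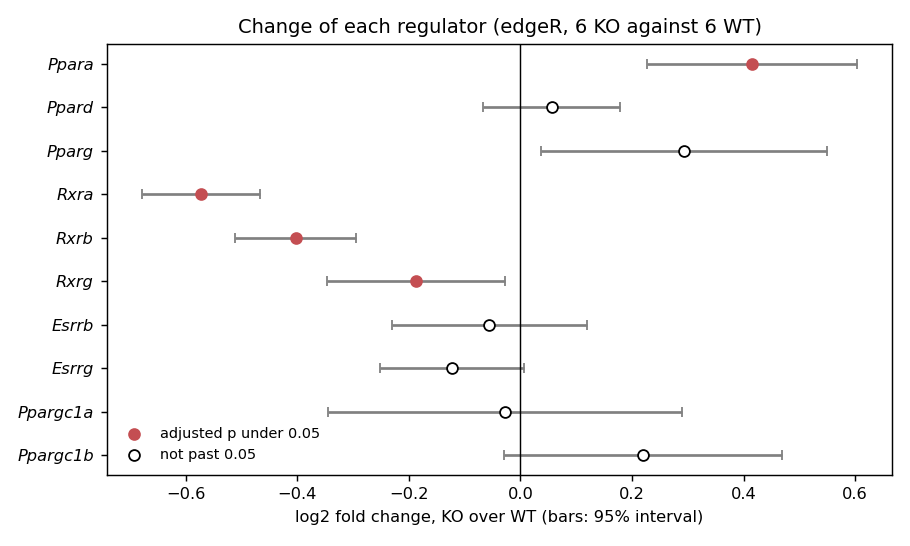
The x axis gives the log2 fold change of KO over WT with its 95% interval for each member and Rxrb, with filled red points for genes past an adjusted p of 0.05 and open points for the others. The intervals of Rxra and Rxrb lie far below 0, that of Ppara lies above 0, and that of Ppargc1a is the widest, from -0.35 to 0.29.

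The ERR genes that were measured did not pass the test. Esrrb encodes ERRβ (chromosome 12, 89692855 to 89877957), which is best known from early embryos and stem cells. It measured 27.9, 31.4 and 32.7 CPM in WT and 24.6, 29.7 and 35.7 CPM in KO, and the KO range enclosed that of WT. Its log2 fold change was -0.06 (95% interval -0.23 to 0.12, adjusted p = 0.602 by edgeR's quasi-likelihood test).

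Esrrg encodes ERRγ, an ERR of oxidative tissues such as heart muscle (chromosome 1, 200643922 to 201306863). Its levels were 39.4, 42.6 and 47.1 CPM in WT and 37.1, 38.9 and 44.3 CPM in KO. Of the KO libraries, 3 (replicates 1, 2 and 4) lay below every WT library, and KO replicate 3 was the highest of its group. The log2 fold change was -0.12 (95% interval -0.25 to 0.01, adjusted p = 0.103 by edgeR's quasi-likelihood test). Without KO replicate 3 it was -0.16 (adjusted p = 0.0252), so 1 library decided the call, and it also passed at -0.18 when a trend on gene length was removed (adjusted p = 0.0245).

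The coactivator Ppargc1a (MGP_C57BL6NJ_G0029973, chromosome 5, 52521630 to 52642764, minus strand) had a KO mean close to that of WT and a wider spread in KO. It measured 113, 119 and 132 CPM in WT and 82.7, 112 and 173 CPM in KO, so the KO range enclosed that of WT on both sides. KO replicates 4 and 1 (173 and 135 CPM) lay above every WT library, replicates 6, 3 and 2 (82.7, 93.6 and 109 CPM) lay below every WT library, and replicate 5 (115 CPM) lay among them. The means were 120 ± 6.94 CPM in WT and 118 ± 32.5 CPM in KO (SD, n = 6 each), with a log2 fold change of -0.03 (95% interval -0.35 to 0.29, adjusted p = 0.891 by edgeR's quasi-likelihood test). With this spread, changes of any size inside that interval are compatible with the values. Leaving out KO replicate 3 or 6 turned the sign, to 0.03 and 0.05. The study, by immunoblot and qPCR, reports lower expression of PGC-1α and other regulators of mitochondrial biogenesis in the mutant mice.

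The spread of Ppargc1a was wider in KO than in WT, a difference that was described and not tested. Its coefficient of variation was 5.76% in WT and 27.5% in KO, a ratio of 4.77. Over 11167 rows with a mean of at least 5 CPM the median ratio was 1.18, and 0.797% of these rows had a ratio at least as large as that of Ppargc1a. The ratio was 2.33 for Esrrb and between 0.714 and 1.76 for the other members. The gene had 2295 to 5047 counts in a library, and each row that lies within its span had at most 84 counts over the 12 libraries. In the KO libraries the sum of the fibroblast markers was highest in replicates 1 and 4 (4974 and 4968 CPM) and lowest in replicates 6 and 3 (2650 and 3005 CPM), the same libraries in which Ppargc1a was highest and lowest. This relation was picked out of 30 after the spread had been seen, and it did not pass correction (Pearson's r = 0.90, exact permutation p = 0.0111, Benjamini-Hochberg adjusted p = 0.167). It was not particular to fibroblast markers, since the macrophage marker sum had r = 0.95 in KO (exact permutation p = 0.00972, adjusted p = 0.167). In WT the fibroblast marker sum had r = 0.40 (exact permutation p = 0.415).

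Ppargc1b, the gene of PGC-1β (MGP_C57BL6NJ_G0024892), measured 13.0, 16.6 and 22.7 CPM in WT and 17.3, 19.1 and 24.9 CPM in KO. In both groups 1 library stood above the others, WT replicate 2 and KO replicate 3. The log2 fold change was 0.22 (95% interval -0.03 to 0.47, adjusted p = 0.132 by edgeR's quasi-likelihood test). Without WT replicate 2 it was 0.32 (adjusted p = 0.0151), so this call also turned on 1 library.

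Levels can be compared between genes only per length, and the order depended on which length was used. By the deposited FPKM (fragments scaled by gene length and by library total), the WT order was Rxra (45.6 ± 2.31), Rxrb (45.3 ± 1.55), Ppargc1a (39.1 ± 2.84), Rxrg (24.1 ± 2.15), Pparg (21.9 ± 3.55), Ppard (16.6 ± 1.14), Ppara (16.2 ± 2.12), Esrrg (13.1 ± 1.10), Esrrb (12.3 ± 0.783) and Ppargc1b (6.90 ± 1.41). Only 3 steps in this order had no overlap of the WT libraries, that from Ppargc1a to Rxrg, that from Pparg to Ppard and that from Esrrb to Ppargc1b. In KO the order by mean FPKM began with Ppargc1a (38.6 ± 11.5), Rxrb (34.3 ± 1.79) and Rxra (30.6 ± 1.72), and Ppara (21.7 ± 3.23) stood before Rxrg (21.2 ± 2.27), with overlap at each of these steps.

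FPKM values rested on a shorter length than the length column of the table for most genes. For Ppara the FPKM corresponded to 1506 bases against 3413 in the column, and for Rxrg to 1746 in both. With CPM per kilobase of the length column, Rxrg came first in WT (24.1), before Rxrb (21.6), Rxra (21.3) and Ppargc1a (19.0), and Ppara (7.16) fell to the last place but 1. The place of Rxrg among the RXR genes thus depended on the length, whereas Ppargc1b was last and the RXR genes and Ppargc1a were in the first 4 places in WT by both.

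**Figure D3:**
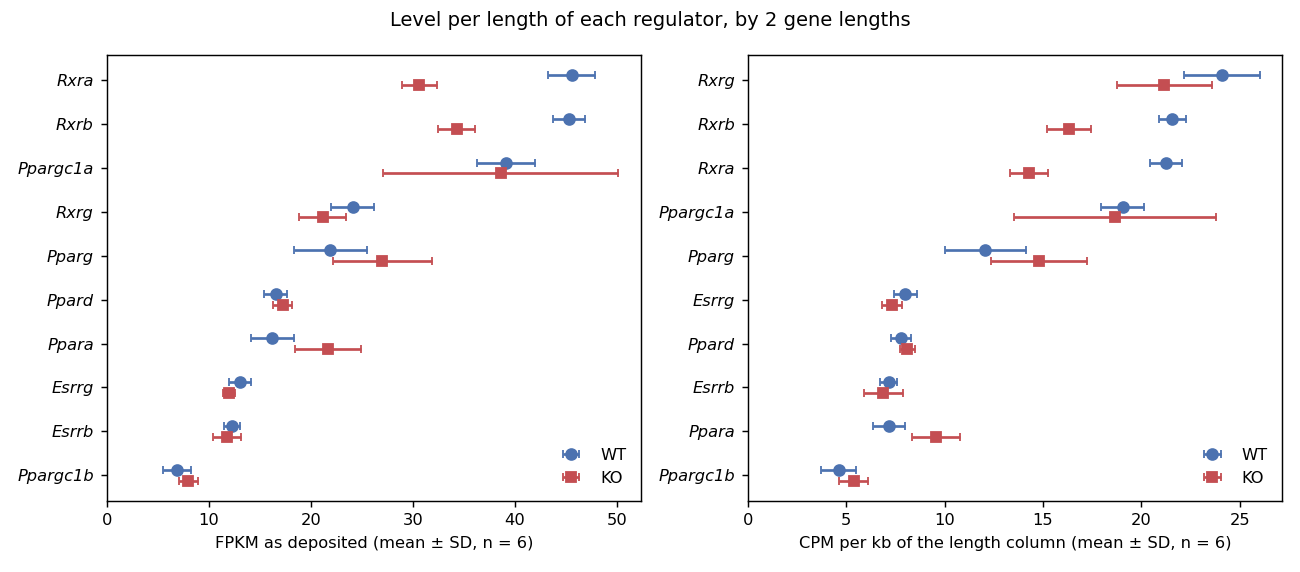
Both panels give the level per length (x axis, mean ± SD over 6 libraries) of each regulator in WT (blue circles) and KO (red squares), as deposited FPKM on the left and as CPM per kilobase of the table's length column on the right, each ordered by its WT level. Rxrg moves from the fourth place on the left to the first on the right, and Rxra and Rxrb have KO values well below their WT values in both.

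Within families, the shares of summed FPKM shifted for the RXR genes. Rxra made up 38.3% to 40.5% of the RXR sum in WT (mean 39.6 ± 1.03) and 33.4% to 37.3% in KO (35.6 ± 1.27), without overlap, while Rxrg went from 18.9% to 22.6% in WT (20.9 ± 1.38) to 21.7% to 26.8% in KO (24.6 ± 1.90), with overlap. The size of these shares depended on the length used, but Rxra also had a lower share in KO without overlap by CPM (50.0% to 45.4%) and by CPM per kilobase of the length column (31.8% to 27.6%). The summed FPKM of the RXR genes was 110 to 121 in WT and 79.5 to 93.3 in KO. Ppara made up 29.7 ± 3.80% of the PPAR sum in WT and 32.9 ± 1.79% in KO, with overlap, and the summed FPKM of the PPAR genes was 49.0 to 57.7 in WT and 56.9 to 76.5 in KO. Ppargc1a made up 85.0 ± 2.58% of the PGC-1 sum in WT and 81.9 ± 5.05% in KO.

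Among partners and coregulators of these receptors, the share called was near that of all rows. Of 21 tested, 7 were higher and 4 lower (52.4% called against 51.1% of all rows), with a median log2 fold change of 0.06 against 0.0022 over all rows. With the trend on gene length removed 4 were higher, and with the replicate number as a block 2 were lower. Perm1, a muscle coregulator that acts with PGC-1 and ERR, rose from 143 to 172 CPM across the WT libraries to 209 to 253 CPM across the KO libraries (log2 fold change 0.51, SE 0.06). Smarcd3, a subunit of the BAF chromatin remodelling complex whose span overlaps that of Chpf2, rose as well (0.49, SE 0.06). The coactivator Ncoa2 fell from 87.1 to 99.6 CPM in WT to 60.3 to 67.7 CPM in KO (-0.53, SE 0.05), with an adjusted p from 8.11e-08 to 8.96e-06 over these 3 genes by edgeR's quasi-likelihood test. The corepressor Ncor1, whose span overlaps those of Ttc19 and Pigl, fell by 0.13 on the log2 scale (adjusted p = 0.0196).

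Genes that act upstream of Ppargc1a were also near the share of all rows. Of 30 tested, 11 were higher and 7 lower (60.0% called against 51.1% of all rows, median log2 fold change 0.03). Of the 6 genes in the list that encode subunits of AMPK, the kinase that senses low energy and acts on PGC-1α, 4 rose, 1 fell and 1 did not pass. Prkab2, the β2 subunit, was 79.8 to 97.3 CPM in WT and 131 to 191 CPM in KO (log2 fold change 0.95, SE 0.08), and Prkag2, the γ2 subunit, rose by 0.66 (SE 0.07). Prkab1, the β1 subunit, was 37.3 to 49.3 CPM in WT and 21.4 to 25.6 CPM in KO (-0.88, SE 0.08). The catalytic subunit genes Prkaa2 (0.35, adjusted p = 7.38e-05 by edgeR's quasi-likelihood test) and Prkaa1 (0.16, adjusted p = 0.0291) rose, and Prkag1 was at -0.16 (adjusted p = 0.0543). These 3 genes, and Akt1, were chosen after their values were seen. Camk2d, a calcium-dependent kinase of heart muscle, rose (0.38), as did the kinase gene Akt1 (0.27, adjusted p = 0.0039), whereas its relative Akt2 (-0.40) and the transcription factor gene Mef2d (-0.23) fell. The span of Prkab2 overlaps that of Gm17651.

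The factors that carry the PGC-1 signal to the mitochondrial genome were lower for 7 of 10 genes tested and higher for 1, against 25.5% lower and 25.6% higher over all rows (median log2 fold change -0.26). The best known of them, Tfam, which packages and transcribes mitochondrial DNA (0.10, adjusted p = 0.158 by edgeR's quasi-likelihood test), and Nrf1 (0.01, adjusted p = 0.943), both named after their values were seen, did not pass. Tfb1m, which methylates mitochondrial ribosomal RNA, went from 8.11 to 10.5 CPM in WT to 3.05 to 4.17 CPM in KO (log2 fold change -1.35, SE 0.11, adjusted p = 2.79e-08 by edgeR's quasi-likelihood test), although its span overlaps those of Tiam2 and Cldn20. Tfb2m, the mitochondrial transcription initiation factor, changed by -0.39 and Mterf2 by -0.34. Gabpb1, a subunit of NRF-2, was the gene that rose (0.20, adjusted p = 0.0158).

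The genes that the PPARs act on were mostly lower. Of 33 PPAR targets tested, 29 were lower and 1 was higher, which is 90.9% called against 51.1% of all rows, and the median log2 fold change was -0.90. For 26 of the 33 the groups did not overlap, against 30.1% of all rows. Plin5, which coats lipid droplets beside mitochondria, was 204 to 246 CPM in WT and 78.0 to 121 CPM in KO (log2 fold change -1.20, SE 0.09). Cpt2, which releases long-chain acyl groups inside mitochondria, was 208 to 248 CPM in WT and 89.4 to 135 CPM in KO (-1.12, SE 0.09). Acot1, an acyl-CoA thioesterase, went from 80.4 to 108 CPM to 3.71 to 9.97 CPM (-3.84, SE 0.19), and is uncertain because near-identical paralogs lie beside it. The gene that rose was Cpt1a, the liver form of the enzyme that admits fatty acids to mitochondria (0.19, adjusted p = 0.0225 by edgeR's quasi-likelihood test), and it did not pass without KO replicate 1 or without KO replicate 3.

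ERR targets were also lower, by less. Of 35 tested, 25 were lower and 1 was higher (74.3% called against 51.1% of all rows, median log2 fold change -0.28). The cardiomyocyte markers shifted by a similar amount. On the log2 scale the sum of the ERR targets moved by -0.21, and that of the 10 markers by -0.25. Among these markers 5 fell, 1 rose and 4 did not pass, and their median was -0.25. The part of cardiomyocyte content in the fall of the ERR targets was not tested. Without KO replicate 3, 30 of the ERR targets were lower. Among all rows the number lower also went up in that fit, from 4376 to 4602. Cox7a1, the muscle form of a complex IV subunit, was 796 to 1088 CPM in WT and 379 to 434 CPM in KO (log2 fold change -1.20, SE 0.07). The tricarboxylic acid cycle genes Fh1 (-0.74) and Idh3b (-0.60) fell too, and their spans overlap those of Kmo and Nop56. Mfn2, which fuses mitochondria, was the gene that rose (0.17, adjusted p = 0.0349 by edgeR's quasi-likelihood test). The lists of targets were written from general knowledge, but with earlier results of these data known. Counts of a list beside those of all rows are therefore a description and no test of the list. The study measured no binding.

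**Figure D4:**
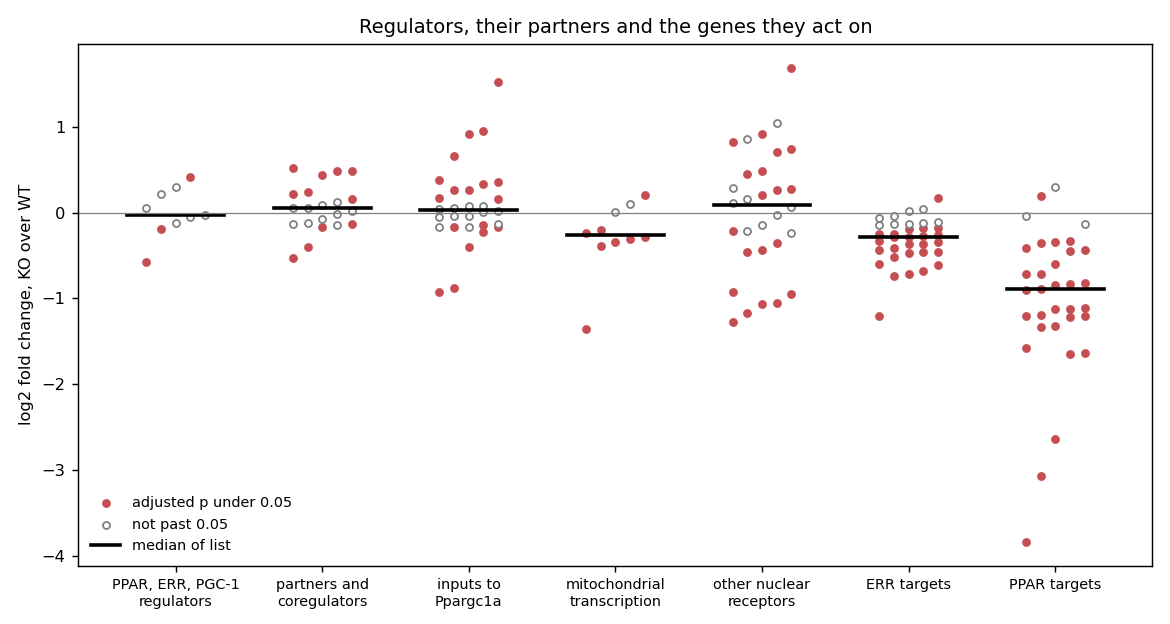
Each point is a gene placed by its log2 fold change of KO over WT (y axis) within its list (x axis), red where the adjusted p was under 0.05 and open where it was not, and black bars mark list medians. The regulators themselves lie between -0.57 and 0.41, whereas the PPAR targets reach -3.84 with a median of -0.90.

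Among the KO libraries, the targets and the regulators were set side by side. The summed level of the PPAR targets was 51.5% to 76.0% of the WT mean in the KO libraries, with KO replicate 3 at the top and KO replicate 4 at the bottom. Rxra was 62.0% to 74.1% of its WT mean, lowest in KO replicate 1 and highest in KO replicate 6. Ppara was 113% to 163% of its WT mean and Ppargc1a 68.7% to 144%, and both were highest in KO replicate 4, the library with the lowest PPAR target sum. The ERR target sum was 79.6% to 99.5% of the WT mean, again highest in KO replicate 3, in which Esrrg (103%) and Esrrb (116%) were also at the top of the KO libraries. The ERR target sum and Esrrg were lowest in KO replicates 1 and 4. In KO replicate 3 the cardiomyocyte marker sum stood at 106% of the WT mean against 74.3% to 84.3% in the other KO libraries. These orders rest on 6 libraries. The part of cardiomyocyte content in these sums was not tested. Without KO replicate 3, 30 PPAR targets were lower and none was higher by edgeR's quasi-likelihood test. Among all rows 4602 were lower and 4401 higher in that fit.

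**Figure D5:**
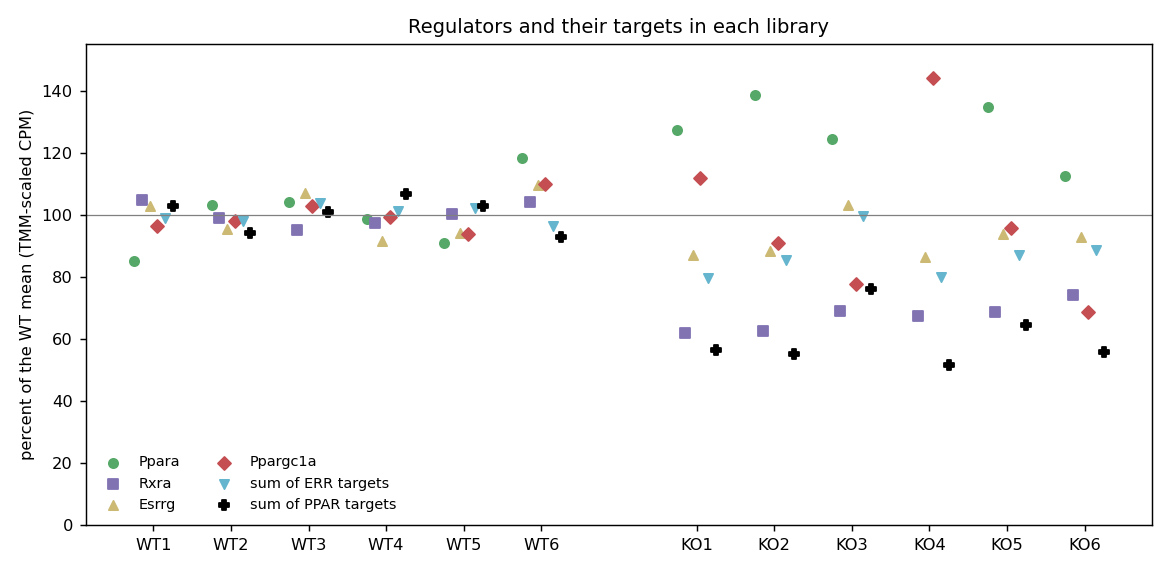
The y axis gives the level of each regulator, and of the summed PPAR and ERR targets, as a percent of its own WT mean in the 12 libraries on the x axis. The Ppara value of KO replicate 4 (163%) lies above the end of the axis and is not drawn. In every KO library the PPAR target sum and Rxra lie at or below 76.0% and Ppara at or above 113%, while Ppargc1a lies on both sides of 100%.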

How the data were processed

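RNA of 6 WT and 6 KO ventricular wall samples was purified on poly-T beads and sequenced after TruSeq preparation. Per the labels, reads were mapped with HISAT2 2.0.5 to mm10, whereas the gene identifiers of the table belong to the C57BL/6NJ assembly, on which its coordinates lie. The authors counted reads per gene with HTSeq 0.9.1 and deposited raw counts and, from them, FPKM for each library. The strand setting is not given in the sources used here. The group means of scaled counts that the authors deposited, a signal, and their DESeq fold changes and p-values were not used.

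KO was compared with WT on the counts by edgeR 4.0.16 under R 4.3.3 (17155 of 43686 rows kept by filterByExpr; TMM scaling; robust quasi-likelihood test; Benjamini-Hochberg over all rows kept), at an adjusted p of 0.05 and at 0.005 with a log2 fold change of 1. The groups came from the sample labels. The labels do not say that the samples are separate animals, so p-values measure the spread between these samples. No libraries looked duplicated (chi-square per degree of freedom at least 7.32). Replicate numbers did not pair the samples. Depth per library is given above; 2590 rows are unannotated loci. The table's length column and the length behind the FPKM differed, so levels per length are given by both. Promoter windows are from RefSeq on GRCm38.p6, another assembly, and were matched by symbol.

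The members and gene lists were chosen with earlier results of these data known, and the lists come from general knowledge. Genes named from a list are the 3 with the smallest p in each direction, of which some are not reported here. For the 3 members with the smallest p, the 3 nearest profiles are named (root mean squared difference of log2 CPM, prior count 2, rows with a mean of at least 5 CPM). The analysis was tested on simulated counts, with the same dispersion for all genes. It recovered 19 of 50 genes with a simulated fold of 1.3 and 41 of 50 with a fold of 0.67. At folds of 2 and 0.5 it recovered all 50, and it called 9 unchanged genes. A rise of 1.3-fold was thus often missed in the simulation. Alternatives were other normalizations, DESeq2 1.42.0, limma-voom (limma 3.58.1), other filters, a replicate block, removal of a length trend, and each library left out in turn. Prmt1, Mterf1, Mterf3, Acot2, Acaa1a and Tufm were also not analysed here.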

Additional observations from a re-analysis of the deposited data

Results flagged for a closer look

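In groups of 6, a library was singled out when its gap to the nearest other value exceeded Dixon's 95% limit for the share of the group's range. Of 80 groups of values examined, 4 met this, and chance alone gives about 4 (1 in 20). Ppargc1b was 24.9 CPM in KO replicate 3 against 17.3 to 19.9 CPM in the other KO libraries. Rara, a retinoic acid receptor that also pairs with RXR, was 11.3 CPM in the same library against 15.3 to 17.2 CPM in the others. Gabpb1 was 14.5 CPM in WT replicate 5 against 15.9 to 16.4 CPM. The targeted gene Sdhaf4 was 2.73 CPM in KO replicate 1 against 2.25 to 2.41 CPM in the other KO libraries, far below every WT library.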

How the results depend on the processing

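Across 23 alternative fits Ppara, Rxra, Rxrb and Sdhaf4 kept their direction and their call, and Ppard and Esrrb stayed short of the threshold with the same direction. The other members lay near the threshold or at no difference. Pparg (log2 fold change 0.29) passed with DESeq2 (0.29), limma-voom (0.30), without robust dispersions (0.29), with a filter at 1 CPM in 6 libraries (0.30), with the replicate block (0.29) and with the length trend removed (0.33). Leaving out 1 library gave Pparg 0.21 to 0.35. Rxrg (-0.19) did not pass with library size only (-0.19), DESeq2 (-0.19), limma-voom (-0.19), without robust dispersions (-0.19), without a filter (-0.19) or at 1 CPM in 6 libraries (-0.18), and with the length trend removed it was -0.14. Leaving out 1 library gave Rxrg -0.23 to -0.14. Esrrg passed with the length trend removed (-0.18) and ranged from -0.16 to -0.10 when 1 library was left out. Ppargc1a ranged from -0.17 to 0.05; its sign turned without KO replicate 3 (0.03) and without KO replicate 6 (0.053). Leaving out 1 library gave Ppargc1b 0.14 to 0.32. The cause of these changes was not tested.

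For the lists, partners and coregulators had 4 higher with the length trend removed and 2 lower with the replicate block. PPAR targets had 2 higher with DESeq2, 0 with the length trend removed, and 0 to 2 when 1 library was left out. ERR targets had 0 higher with upper quartile scaling, the replicate block or the length trend removed, and 0 to 1 when 1 library was left out. By CPM without length, in place of FPKM, the family share of Ppara in KO was 36.1%, of Rxra 50.0% in WT and 45.4% in KO, and of Ppargc1a 87.7% in WT. By CPM per kilobase of the length column, chosen after seeing the data, they were 29.4% (Ppara in KO), 31.8% and 27.6% (Rxra), 36.0% and 40.8% (Rxrg), and 80.5% and 76.7% (Ppargc1a). Other scalings left the median log2 fold change of all rows between -0.0077 and 0.0037.

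Replicate numbers did not pair the samples: WT and KO libraries of the same number deviated from their group means with correlations across genes from -0.162 to 0.0243, and 0 of 6 pairs were over 0.1. With the replicate block, 2 members were higher (Ppara and Pparg) and 2 lower (Rxra and Rxrg).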

Other observations

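Other nuclear receptors moved in both directions: of 30 tested, 10 were higher and 10 lower (66.7% called against 51.1% of all rows), with a median log2 fold change of 0.09. Nr2f2, a COUP-TF of vessels and atrium, was 16.0 to 18.3 CPM in WT and 22.7 to 32.8 CPM in KO (log2 fold change 0.70, SE 0.08). Rara rose by 0.74 (SE 0.11), and Esr1 rose by 1.69 (SE 0.32) from a mean of only 0.389 CPM. Nr1h3, the oxysterol receptor LXRα and another partner of RXR, was 20.0 to 22.9 CPM in WT and 8.15 to 9.77 CPM in KO (-1.28, SE 0.07). The mineralocorticoid receptor gene Nr3c2 fell as well (-1.07, SE 0.11). The adjusted p of these 5 genes was at most 0.000262 by edgeR's quasi-likelihood test.

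Over the 12 libraries and 10043 rows, the profiles most like that of Rxra were those of Isoc1, Gpr108 and Psmc2, with root mean squared differences of 0.0700, 0.0705 and 0.0752 in log2 CPM. For Ppara they were Apaf1 (0.0755), Cfl1 (0.0822) and Hspg2 (0.0845), and for Rxrg Ints4 (0.0721), Ercc6l2 (0.0768) and Cluh (0.0785). The likeness includes the difference between the genotypes.

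After the spread of Ppargc1a in KO had been seen, its level was set beside the summed level of each list within each genotype, 30 relations in all. Among the 6 KO libraries Pearson's r with the fibroblast marker sum was 0.90 (exact permutation p = 0.0111, Benjamini-Hochberg adjusted p = 0.167) and Spearman's rho was 0.89 (exact permutation p = 0.0333, adjusted p = 0.438), with r = 0.98 after the 2 libraries farthest from the median were left out. With the macrophage marker sum r was 0.95 (exact permutation p = 0.00972, adjusted p = 0.167) and rho 0.83 (exact permutation p = 0.0583, adjusted p = 0.438), and r was 0.74 without those 2 libraries. With the ERR target sum r was -0.73 (exact permutation p = 0.1, adjusted p = 0.744) and rho -0.83 (exact permutation p = 0.0583, adjusted p = 0.438). With the skeletal muscle marker sum, nearly all of it Acta1, r was 0.69 (exact permutation p = 0.122, adjusted p = 0.744) and rho 0.89 (exact permutation p = 0.0333, adjusted p = 0.438), and r was 0.995 without the 2 farthest libraries. With the cardiomyocyte marker sum r was -0.56 (exact permutation p = 0.244, adjusted p = 0.744) and rho -0.77 (exact permutation p = 0.103, adjusted p = 0.617). Of the 30 relations, none passed the correction.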
